A study of Mus musculus with 4 samples.

Results

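Among 30506 loci measured by RNA-Seq in mouse mammary tissue, 184 had no gene name and spanned at most 150 bp. They were chosen as the rows of the deposited table whose gene field was a dash and whose end minus start was at most 150 bp, with an FPKM above 0 in at least one genotype. FPKM is a read abundance in which the number of fragments is scaled to the length of the locus and to the depth of the library. No other short unannotated row existed, since all 184 rows under the length limit had an FPKM above 0. They made up a small part of the 8023 unannotated loci, and their lengths ran from 50 to 150 bp with a median of 88.5 bp. None overlapped the span of a locus with a gene name, and 46 lay within 10 kb of one.

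The study compared mammary gland of mice that lack the microRNA miR-21 (genotype MiR21 -/-, here miR-21-/-) with that of miR21 +/+ mice (miR-21+/+). How the deletion was made is not given in the sources used here. There were 2 virgin mice of each genotype, all 2 months old and of the strain 129SV::FVB/N::C57BL/6. The labels name the gland and no cell type, and markers of epithelium, fat pad, muscle and lymph node were all measured in it. Poly(A) RNA was sequenced as single-end reads. The table gives one FPKM for each genotype, combined by the authors from both mice. How far mice of a genotype varied is thus unknown, no test was possible, and every difference given here is a description of a pair of values.

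A locus without a gene name in such a table is a stretch where reads piled up outside the annotation used. Messenger RNAs are now and then copied back into the genome without their introns, and such processed copies often keep the end of the message with its polyadenylation signal and a run of A. Mouse DNA also holds dispersed repeats, satellites and fragments of ribosomal RNA genes, whose reads can be placed at many sites. A read that fits several places equally may be counted at any of them, depending on how the aligner was set.

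Sequences are shown first for 10 loci whose summed FPKM differed more between genotypes than the sum over all loci did. All members were aligned to the mouse genome (mm9). Members were linked when their matches fell within 1000 bp of each other somewhere in the genome, which gave 14 linked sets with 36 members in all. Members with over 200 genome matches could not be linked. Matches of any length and identity within the E value limit of 1e-05 were used. The 10 loci are 3 of these sets, of 2, 3 and 5 loci, and were picked out after their values and letters had been seen. Other linked sets differed in other ways, and 4 of them had median log2 ratios between -1.46 and -0.86. All are given on the plus strand except chr9:3258819-3258934, which is given on the minus strand. Capitals mark bases that align directly with another locus of the same set, at 97.2% identity over 71 bases for chr14:20110656-20110727 with chr9:3258819-3258934 and at 91.8% over 61 bases for chr9:110183756-110183858 with the same locus. Loci in lower case throughout had no such direct match and were linked by position alone.
chr2:90235286-90235349: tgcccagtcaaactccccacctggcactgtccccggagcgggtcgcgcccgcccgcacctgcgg
chr1:87761121-87761185: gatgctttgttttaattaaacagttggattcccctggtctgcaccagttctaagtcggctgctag
chr1:133470397-133470453: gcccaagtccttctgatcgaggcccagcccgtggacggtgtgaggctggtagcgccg
chr10:11211926-11211990: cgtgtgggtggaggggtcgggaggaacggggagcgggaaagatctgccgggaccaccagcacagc
chr1:124253709-124253823: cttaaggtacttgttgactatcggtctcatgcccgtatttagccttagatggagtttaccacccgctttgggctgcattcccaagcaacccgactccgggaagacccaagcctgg
chrX:3846729-3846809: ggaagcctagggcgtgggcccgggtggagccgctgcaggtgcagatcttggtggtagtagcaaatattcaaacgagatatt
chr1:104524766-104524905: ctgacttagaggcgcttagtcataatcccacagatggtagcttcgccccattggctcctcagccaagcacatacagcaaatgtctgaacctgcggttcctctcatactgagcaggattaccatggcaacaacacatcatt
chr14:20110656-20110727: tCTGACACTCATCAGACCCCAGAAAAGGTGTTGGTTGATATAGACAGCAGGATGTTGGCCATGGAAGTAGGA
chr9:3258819-3258934: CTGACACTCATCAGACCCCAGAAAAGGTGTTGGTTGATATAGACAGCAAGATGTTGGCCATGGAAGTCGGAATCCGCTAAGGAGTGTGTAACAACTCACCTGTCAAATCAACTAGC
chr9:110183756-110183858: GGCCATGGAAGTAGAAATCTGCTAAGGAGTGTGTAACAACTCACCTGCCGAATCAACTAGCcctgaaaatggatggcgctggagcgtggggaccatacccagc

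By general knowledge, several of these letters read as large-subunit ribosomal RNA, the structural RNA of the ribosome. No ribosomal RNA sequence of this kind was among the references used here, so that reading was not computed. The loci were present in 2 to 8 copies in mm9, counting matches of at least 90% identity over at least 80% of their length. None of the 10 lay in an annotated gene. The stretch that held matches to 4 of the 5 loci of the largest of these sets was chr14:20110656-20110951, on the plus strand, with the matching bases in capitals and an unmatched stretch between them.
chr14:20110656-20110951: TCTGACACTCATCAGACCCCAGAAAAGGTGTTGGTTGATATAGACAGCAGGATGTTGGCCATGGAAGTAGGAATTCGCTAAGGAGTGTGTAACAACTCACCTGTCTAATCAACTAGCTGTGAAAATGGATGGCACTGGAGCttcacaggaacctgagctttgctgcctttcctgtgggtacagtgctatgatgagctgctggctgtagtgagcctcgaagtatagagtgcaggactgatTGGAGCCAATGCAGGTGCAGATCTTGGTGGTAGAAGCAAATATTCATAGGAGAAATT

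All 10 linked loci had a higher FPKM in miR-21-/- glands, by 3.93- to 6.27-fold (log2 ratio 1.97 to 2.65). The locus chr2:90235286-90235349 had the highest value of any member, with 35393 FPKM in miR-21+/+ and 222080 FPKM in miR-21-/-. Its partner, chr1:87761121-87761185, went from 6710 to 38854 FPKM. Both were about 6-fold apart, with log2 ratios of 2.65 and 2.53. In the set of 3, chr1:133470397-133470453 stood at 21582 FPKM in miR-21+/+ and 109663 FPKM in miR-21-/-. The corresponding values were 8975 and 35257 FPKM for chr10:11211926-11211990, and 2697 and 12510 FPKM for chr1:124253709-124253823. These 3 loci had log2 ratios of 2.35, 1.97 and 2.21. In the set of 5, the log2 ratios lay between 2.13 and 2.30. There chr14:20110656-20110727 had 15625 and 76966 FPKM, and chrX:3846729-3846809 had 11951 and 57387 FPKM. The longest of the 10, chr1:104524766-104524905, went from 2489 to 11250 FPKM. Its neighbours in level were chr9:110183756-110183858, at 2434 and 11357 FPKM, and chr9:3258819-3258934, at 1105 and 4848 FPKM. The 10 loci sit on 6 chromosomes and their levels in miR-21+/+ spanned from 1105 to 35393 FPKM. That their log2 ratios lie close together follows in part from how they were picked.

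**Figure D1:**
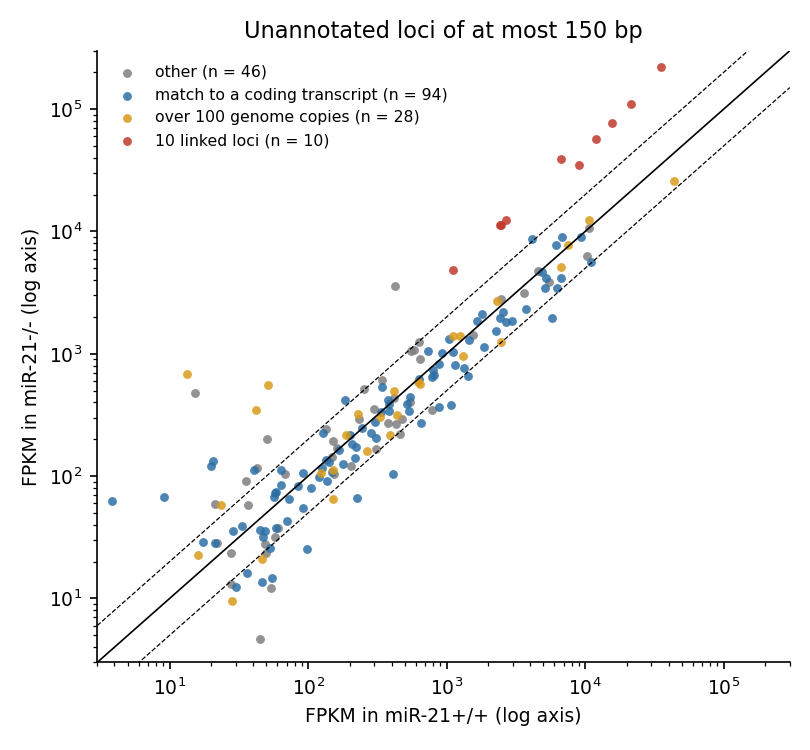
FPKM of each member above 0 in both genotypes, miR-21+/+ on the x axis and miR-21-/- on the y axis, both on log scales; each point is 1 locus, the solid line marks equal values and the dashed lines a 2-fold difference. The 10 linked loci lie apart above the upper dashed line, at log2 ratios of 1.97 to 2.65, while most other members lie between the dashed lines.

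A ratio was formed for the 178 of 184 members that were above 0 in both genotypes and over 5 FPKM in one or both. This limit is the one the study worked with. Among these 178 loci, 28 (15.7%) were at least 2-fold higher and 22 (12.4%) at least 2-fold lower in miR-21-/-. Over all 10326 loci that met the same conditions the shares were 2.06% and 2.21%, and over 9713 loci with a gene name they were 1.25% and 1.47%. Longer unannotated loci had shares like those of the members. They were 14.8% and 15.1% for 318 loci of over 150 to 1000 bp, and 14.5% and 12.8% for 117 loci over 1000 bp. The median log2 ratio of the members was -0.11, with quartiles of -0.64 and 0.41. Over all loci the median was -0.03 and the quartiles were -0.17 and 0.09, so the members were spread more widely around a similar centre. Only 3 of 40 named loci of at most 150 bp with an FPKM above 0 met the same conditions, and none of the 3 was 2-fold apart. Without the 10 linked loci, 18 members were at least 2-fold higher and 22 at least 2-fold lower, with a median of -0.15. Scaling both columns to equal sums over all loci moves every log2 ratio by -0.63, and the counts were then 20 higher and 66 lower.

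The members held 47.0% of the summed FPKM of all loci in miR-21+/+ and 67.7% in miR-21-/-. The 10 linked loci alone held 14.4% and 49.4%. The other 174 members went the other way, from 32.7% to 18.3%. In FPKM, the sum over all loci was higher by 416308 in miR-21-/-, and the sum over the 10 linked loci was higher by 471210. The other members and the named loci both had lower sums in miR-21-/-, with ratios of 0.867 and 0.934. Locus length weighs heavily in these shares. If FPKM was computed on the full locus length, which the sources used here do not state, the members would stand for 2.29% of mapped fragments in miR-21+/+ and 5.37% in miR-21-/-. The 10 linked loci would then stand for 0.765% and 4.02%. Library depth and the amount of ribosomal RNA left after poly(A) selection are not given in the sources used here, and their part in the difference was not tested.

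**Figure D2:**
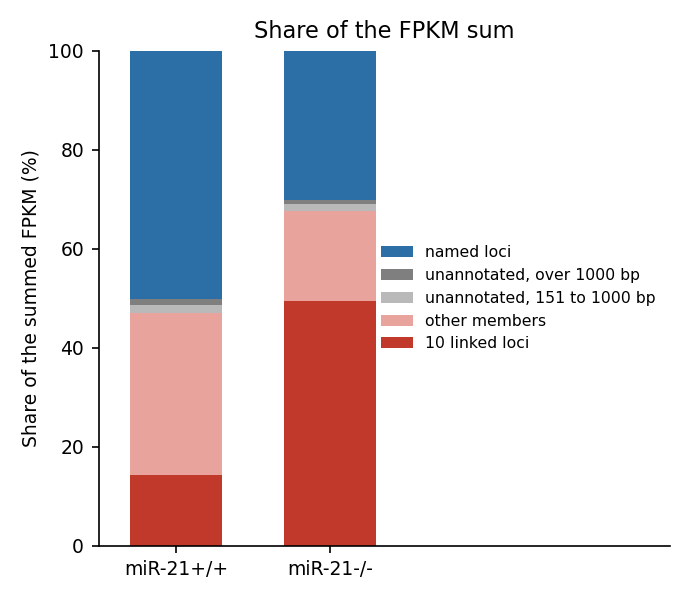
Stacked bars give the share of the summed FPKM, in percent, held by 5 groups of loci in each genotype. The 10 linked loci take 14.4% in miR-21+/+ and 49.4% in miR-21-/-, and named loci take 50.1% and 30.2%.

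The FPKM of members fell steeply with length. For the 21 loci of up to 60 bp the medians were 6132 FPKM (miR-21+/+) and 5138 FPKM (miR-21-/-). At 61 to 90 bp the medians over 76 loci were 642 and 668 FPKM. At 91 to 120 bp they were 150.96 and 152.9 FPKM over 42 loci, and at over 120 to 150 bp they were 46.7 and 36.2 FPKM over 45 loci. The order of the length classes was thus the same in both genotypes. Unannotated loci of over 150 to 200 bp continued the series with medians of 12.1 and 10.8 FPKM, and those of over 200 to 300 bp had 2.54 and 2.25 FPKM. At the limit itself, the 5 longest members ranged from 22.1 to 205 FPKM in miR-21+/+ and from 28.6 to 122 FPKM in miR-21-/-. The 5 shortest unannotated loci beyond the limit ranged from 0.973 to 82.6 FPKM and from 11.1 to 361 FPKM. One of these, a locus of 152 bp on chromosome 19, held both the lowest miR-21+/+ value and the highest miR-21-/- value of those 5.

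**Figure D3:**
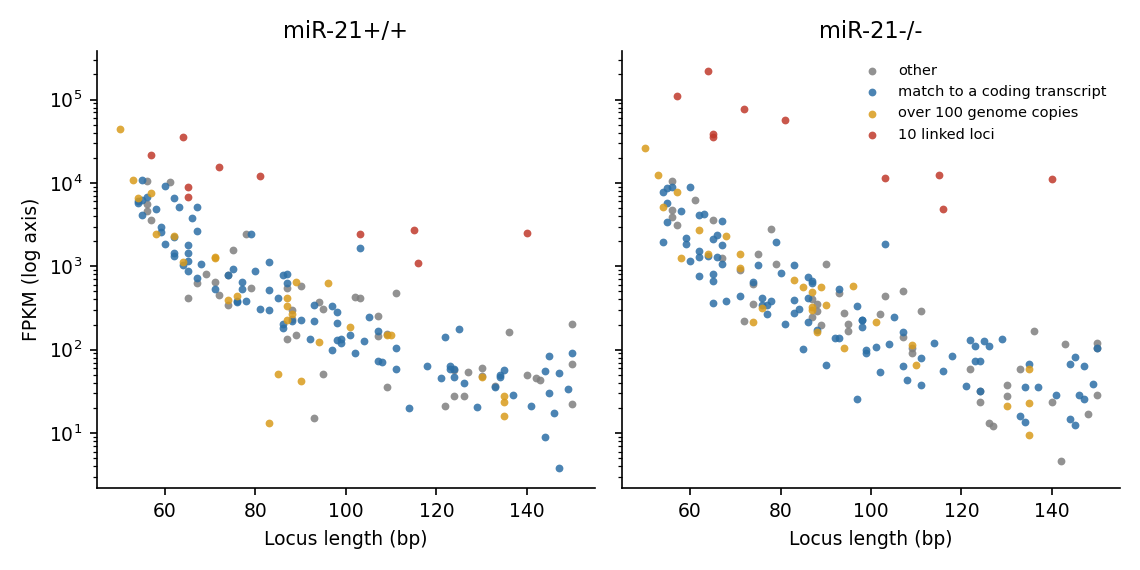
FPKM (log axis) of each member above 0 against locus length in bp, with miR-21+/+ on the left and miR-21-/- on the right; colours give the sequence classes. Medians fall from 6132 FPKM at up to 60 bp to 46.7 FPKM at over 120 to 150 bp in miR-21+/+. The 10 linked loci stand above the other loci of the same length in both genotypes.

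The median genotype ratio was slightly higher in each longer class, by less than the quartiles of any class spanned. Among loci of up to 60 bp, 2 were at least 2-fold higher and 1 at least 2-fold lower, with a median log2 ratio of -0.19. The counts were 10 and 8 of 72 at 61 to 90 bp, with a median of -0.12. At 91 to 120 bp they were 8 and 2 of 41, with a median of -0.11. At over 120 to 150 bp they were 8 and 11 of 44, with a median of 0.01. The quartiles went from -0.70 and 0.06 in the shortest class to -0.90 and 0.63 in the longest. The linked loci were found in every class, and without them the medians were -0.21, -0.14, -0.17 and -0.04 from the shortest to the longest class, which no longer follow that order throughout. Of the 9 members of highest mean FPKM, 6 were at least 2-fold higher, and all 6 were linked loci. Outside the 10, 38 members exceeded 1000 FPKM in both genotypes, and their log2 ratios lay between -1.58 and 1.06.

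Members were found on chromosomes 1 to 19 and X, from 4 loci on chromosomes 13 and 17 to 17 on chromosome 1. Set against all loci in the table, their density ran from 2.63 per 1000 loci on chromosome 17 to 10.1 per 1000 on chromosomes 8 and X. The median log2 ratio was above 0 on 7 chromosomes and below 0 on 13. It was highest on chromosome 8, at 0.38 over 15 loci, and lowest on chromosome 19, at -0.71 over 5 loci. On chromosome 1, which held 4 of the linked loci, the median was -0.07 with them and -0.26 without them. The summed FPKM of members was 4.62-fold higher in miR-21-/- on chromosome 2 and 4.47-fold higher on chromosome 14, where in each case 1 linked locus led the sum. On chromosome 5, with 12 loci and no linked one, the ratio of sums was 0.664 and the median log2 ratio -0.62.

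**Figure D4:**
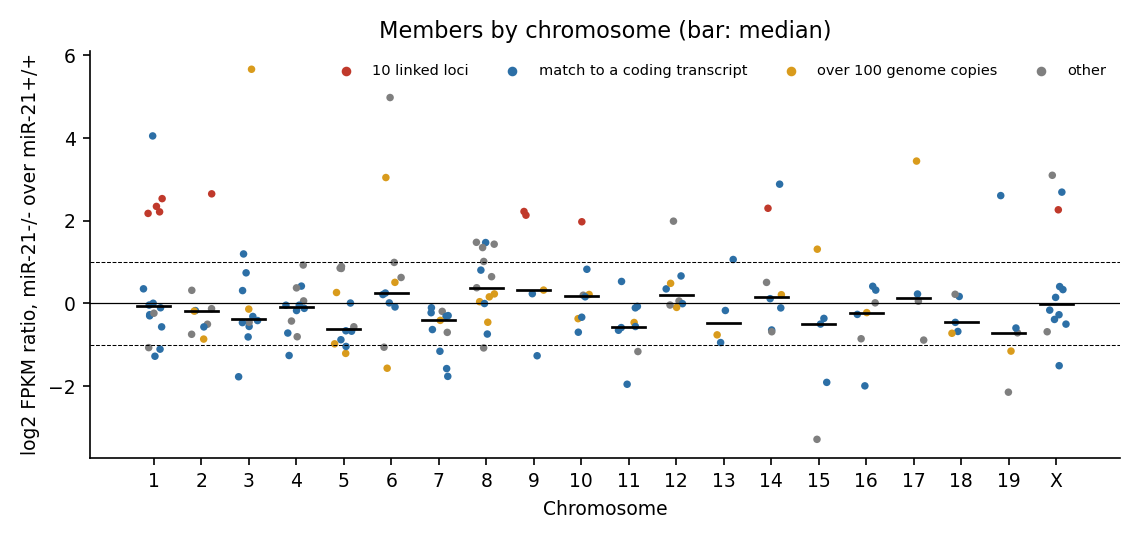
log2 ratio of FPKM, miR-21-/- over miR-21+/+, for each member above 0 in both genotypes by chromosome; black bars are medians, dashed lines mark a 2-fold difference and colours give the sequence classes. The medians lie between -0.71 (chromosome 19) and 0.38 (chromosome 8), and the linked loci cluster near a log2 ratio of 2 on 6 chromosomes.

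Many members matched messenger RNAs in sequence. A match of at least 90% identity over at least 80% of the locus to a protein-coding transcript was found for 118 of 184 members. Leaving out sequences with over 100 genome copies, 97 remained, and 92 of these lay at another place than the gene of the matched transcript. The 92 matched 85 different genes, with a median identity of 98.0%, and 22 were identical to the transcript. They are called copies here on this match alone, and how each arose was not tested. An exon junction was crossed by 42 of the 92 matches, so the locus holds letters that are split by an intron at the gene itself. The match lay in the 3' untranslated region for 39 loci, in coding sequence for 33, in both for 18 and in the 5' untranslated region for 2.

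The following 5 sequences are examples of the 42 matches that cross an exon junction. Each joins the ends of 2 exons that an intron separates in the gene. They were not chosen to stand for all 42, and their ratios do not describe that group. They are written in the direction of the matched transcript, which is the minus strand of mm9 for the copies of Calm3, Rhoa and Clpx and the plus strand for those of Hibadh and Tceb2. Capitals mark 10 bases, 5 on either side of the exon junction.
chr6:95983206-95983297, copy of Calm3: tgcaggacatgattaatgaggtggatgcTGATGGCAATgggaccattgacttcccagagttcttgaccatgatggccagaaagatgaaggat
chr4:117401575-117401672, copy of Rhoa: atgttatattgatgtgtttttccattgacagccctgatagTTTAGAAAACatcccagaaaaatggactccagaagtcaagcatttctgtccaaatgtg
chr4:69709065-69709129, copy of Hibadh: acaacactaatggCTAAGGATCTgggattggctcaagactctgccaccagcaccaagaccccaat
chr11:6142506-6142602, copy of Tceb2: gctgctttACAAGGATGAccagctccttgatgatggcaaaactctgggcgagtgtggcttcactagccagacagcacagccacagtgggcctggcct
chr1:173609876-173609941, copy of Clpx: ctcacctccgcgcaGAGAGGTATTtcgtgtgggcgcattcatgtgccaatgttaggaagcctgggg

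The copy of Calm3, a calmodulin gene, joins exons 3 and 4 with no mismatch, and had 135 FPKM in miR-21+/+ and 136 FPKM in miR-21-/- against 88.2 and 77.8 FPKM for the gene. The copy of Rhoa, which encodes a small GTPase of the cytoskeleton, joins exons 4 and 5 and lies in the pseudogene Gm12844. It had 209 and 185 FPKM, and Rhoa had 191 and 184 FPKM. The log2 ratios of these loci were 0.01 and -0.17, and those of their genes -0.18 and -0.05.

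The other 3 copies differed more than their genes. Hibadh encodes an enzyme of valine breakdown in mitochondria. Its copy, which lies in the pseudogene Gm11225, had 877 FPKM in miR-21+/+ and 366 FPKM in miR-21-/-, a log2 ratio of -1.26 against -0.43 for Hibadh. Tceb2 encodes elongin B, a subunit of ubiquitin ligase and elongin complexes. Its copy in the pseudogene Gm11401 had 98.5 and 25.4 FPKM, a log2 ratio of -1.96 against -0.11 for Tceb2. Clpx encodes the ATPase of a mitochondrial protease. The locus that matched it at 93.9% identity was listed at 0 in miR-21+/+ and had 1299 FPKM in miR-21-/-, while Clpx had 19.5 and 19.7 FPKM.

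For 76 copies, the matched gene had a row of its own, not merged with another gene, with more than 5 FPKM in miR-21+/+, which allowed values to be set side by side. The median log2 ratio was -0.17 for the copies and -0.03 for the genes. The genes lay between -0.82 and 0.55 and none was 2-fold apart, whereas 13 of the 76 copies were. Copy and gene had the same sign in 51 of 76 pairs. Across these pairs Pearson's r was 0.30 and Spearman's rho 0.39, as a description only, since both values come from the same libraries, some genes have more than 1 copy and reads may be shared between copy and gene. The mean FPKM of the copy exceeded that of the gene in 55 of the 76. Since the FPKM of members fell steeply with length, this count does not show that copies were more expressed than genes. Among the 7 genes with more than 1 member, both copies of Arpc5, an actin-nucleating complex subunit, had log2 ratios of 0.33 and 0.35. The gene stood at 0.09. Both copies of Chchd2, which encodes a mitochondrial protein, stood at -0.04 and -0.05, against -0.30 for the gene. Acsl1 encodes a long-chain acyl-CoA synthetase, and its copies at chr5:26684832-26684978 and chr5:26685356-26685417 had log2 ratios of -1.04 and -0.67. The gene had -0.82, from 590 to 333 FPKM. Copies of Aldoa had opposite signs, at -0.47 and 0.23, as had those of R3hdm2, at 0.11 and -0.11. Copies of Atp5c1 stood at -0.95 and -0.17, and those of 2610301B20Rik at -0.39 and -1.51. The loci that matched Acsl1 lie 377 bp apart, those of Atp5c1 1327 bp and those of 2610301B20Rik 323 bp. Each of these pairs may be pieces of 1 copy, which was not tested.

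**Figure D5:**
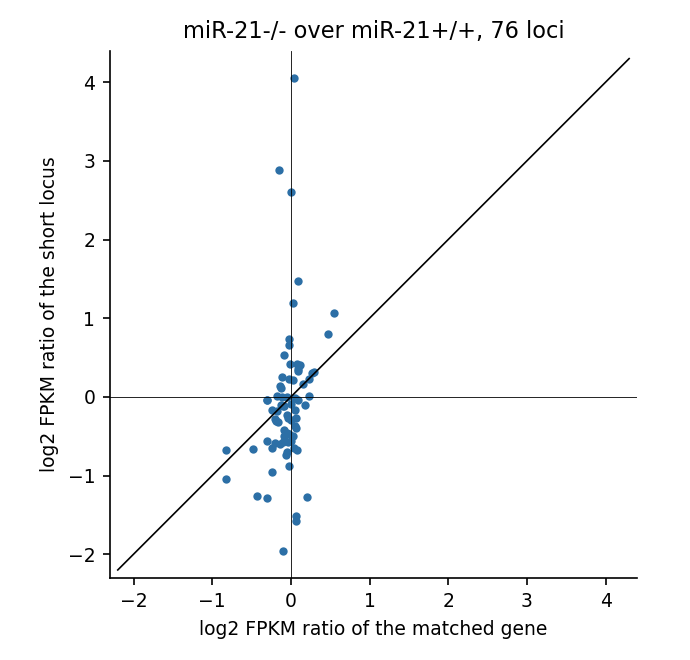
log2 FPKM ratio (miR-21-/- over miR-21+/+) of 76 short loci on the y axis against that of the matched coding gene on the x axis; each point is a locus and the diagonal marks equal ratios. The genes lie between -0.82 and 0.55 and the loci between -1.96 and 4.05.

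A further copy was among the 21 members of up to 60 bp, whose medians were 6132 FPKM in miR-21+/+ and 5138 FPKM in miR-21-/-. The locus chr13:118246570-118246624 matched the 3' end of Krt18, a keratin of luminal epithelium, and had 4148 FPKM in miR-21+/+ and 8654 FPKM in miR-21-/-. Krt18 itself had 148 and 216 FPKM, a log2 ratio of 0.55 against 1.06 for the locus. The marker lists for luminal cells (summed level 550 and 744 FPKM), myoepithelial cells (292 and 472 FPKM) and skeletal muscle (706 and 1092 FPKM) were higher in miR-21-/-. The lists for fat pad (9276 and 6750 FPKM) and lymph node (149 and 5.87 FPKM) were lower. All 17 markers of these lists exceeded 5 FPKM in miR-21+/+, and fewer cells of a type cannot be told apart from less RNA per cell. Their part in the values of the members was not tested. In the other direction, the copy of Hnrnpa2b1, which encodes an RNA-binding protein, had 5811 and 1946 FPKM at chr7:3273970-3274023, a log2 ratio of -1.58. Hnrnpa2b1 had 281 and 293 FPKM.

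Some members had a run of A or T at an end, and how these runs arose was not tested. A run of at least 8 A within 5 bases of the right end, or of T within 5 bases of the left end, was found in 29 members (15.8%) and in 1.70% of 5006 unannotated loci of over 150 to 1000 bp. The 29 include chr10:75510791-75510843, with 32207 copies in the genome. Of the 29, 26 held the polyadenylation hexamer AATAAA or ATTAAA on the strand of the run. Searched on both strands, these hexamers were in 25.5% of all members and in 14.4% of central windows of 88 bases of the longer unannotated loci. Those windows left out the ends of the longer loci, so the shares do not compare ends with ends. GC content ran from 11.9% to 77.0% with a median of 44.9%. The median log2 ratio was -0.07 for 61 members of up to 40% GC, -0.20 for loci of over 40% to 50%, and 0.11 for those above 50%. The linked loci had between 44.6% and 75% GC, and 3 of the 12 members above 60% were among them.

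Over 100 copies in the genome were found for 29 members, 11 to 100 copies for 29, 2 to 10 copies for 91 and a single copy for 35. The member with the highest miR-21+/+ value, chr13:84816732-84816781, consists of repeated pairs of bases and had 916 copies. It had 44087 FPKM in miR-21+/+ and 25993 FPKM in miR-21-/-. At chr10:75510791-75510843, with 32207 copies, the values were 10743 and 12464 FPKM. For the high-copy members as a group the median log2 ratio was -0.12, with 4 at least 2-fold higher and 3 at least 2-fold lower of 28. Of 32 members with 1 copy, 1 was at least 2-fold higher and 4 were at least 2-fold lower, with a median of -0.35. Copies were counted in the genome alone, so a member with 1 copy can still match a transcript across an exon junction. The Hibadh copy is such a member. The largest group of members that shared sequence directly had 6 loci, of which chr10:75510791-75510843 was the highest. The other members of the group had 1246 and 1389 FPKM at chr8:69834985-69835055, 926 and 1023 FPKM at chrX:34606401-34606475, 333 and 302 FPKM at chr3:110899288-110899374, and 19.9 and 121.5 FPKM at chr19:6592224-6592337. Of the 6, only the one on chromosome 19 was at least 2-fold apart, with a log2 ratio of 2.61. The sixth is shown on the plus strand with the shared bases in capitals, which are mostly a run of A, and it had 628 and 1249 FPKM.
chr6:16983585-16983651: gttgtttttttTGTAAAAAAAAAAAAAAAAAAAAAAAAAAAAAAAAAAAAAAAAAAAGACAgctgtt

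The other members among the 12 of highest mean FPKM differed less than the linked loci. The locus chr16:26454875-26454930 had 10574 FPKM in miR-21+/+ and 10667 FPKM in miR-21-/-. The Chchd2 copy at chr4:34433704-34433763 had 9290 and 9004 FPKM. Both were nearly level between genotypes. The copy of Atp5c1, a subunit gene of the mitochondrial ATP synthase, at chr13:77808180-77808234 had 10937 and 5668 FPKM, a log2 ratio of -0.95. At chr19:3206213-3206273, which occurs once in mm9 and matched no coding transcript, the values were 10279 and 6271 FPKM. A second piece that matched Atp5c1, 1327 bp away at chr13:77809562-77809668, had 72.6 and 64.4 FPKM and a log2 ratio of -0.17.

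The largest ratios belonged to loci of lower level. The locus chr3:36025738-36025820 had 13.4 FPKM in miR-21+/+ and 678 FPKM in miR-21-/- (log2 ratio 5.66). At chr17:21124217-21124301 the values were 51.5 and 560 FPKM, and at chrX:4944103-4944167 they were 422 and 3614 FPKM. These 3 loci formed a linked set with chr12:52587875-52587969, at 50.8 and 202 FPKM, and chr7:7025358-7025468, at 477 and 293 FPKM. In this set of 5, 4 were at least 2-fold higher in miR-21-/- and the one on chromosome 7 was lower, with a log2 ratio of -0.70. Each of the 5 had at least 54 copies in the genome. At chr6:66774233-66774325 the FPKM was 15.2 in miR-21+/+ and 481 in miR-21-/-, a log2 ratio of 4.98, and at chr6:66780190-66780279 it was 42.0 and 346, a log2 ratio of 3.04. They lie 5864 bp apart. The copy of Srrm2, a splicing factor gene, at chr1:55185503-55185649 had 3.81 and 63.2 FPKM, while Srrm2 had 82.2 and 84.2 FPKM.

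Among the members lower in miR-21-/-, the lowest ratio was at chr15:59958707-59958848, a single-copy locus with 45.3 FPKM in miR-21+/+ and 4.63 FPKM in miR-21-/- (log2 ratio -3.29). It was followed by chr19:24982853-24982979, with 53.5 and 12.1 FPKM and 94 copies. The copy of 4930433N12Rik at chr16:49294055-49294139 had 411 and 103 FPKM. The locus in the 5' untranslated region of Xrcc6, which encodes a DNA repair protein, at chr15:81818251-81818394 had 54.9 and 14.6 FPKM. The copy of Msi2, an RNA-binding protein gene, at chr3:20373761-20373850 had 226 and 65.9 FPKM. As a group the 22 members at least 2-fold lower had medians of 76.7 and 25.5 FPKM. Only 3 of them exceeded 1000 FPKM in miR-21+/+. Matches to coding transcripts with at most 100 copies made up 13 of these 22 and 7 of the 28 that were higher. They made up 94 of all 178 members with a ratio. The 28 include the 10 linked loci, none of which matched a coding transcript.

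Of 10 pairs of adjacent members at most 10 kb apart, 9 had log2 ratios of the same sign. These pairs are not independent of each other, since 4 of the 9 were pieces that matched the same gene (Atp5c1, Acsl1, Gm1966 and 2610301B20Rik) and 3 came from a single stretch of chromosome 8. In an intron of the annotated gene Gm20388 on chromosome 8, 4 members lay between positions 124359234 and 124364773, and all 4 were at least 2-fold higher in miR-21-/-. They went from 35.7 to 90.99, from 21.3 to 59.4, from 253 to 511 and from 42.8 to 115 FPKM in order of position. Each had between 50 and 74 copies in the genome. A pair inside exons of Gm1966 on chromosome 7, 456 bp apart, went from 46.7 to 13.7 and from 36.1 to 16.2 FPKM.

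In the GENCODE annotation of mm9, 28 members overlapped an exon, 10 lay in an intron and 146 lay in no gene. Of the 28, 20 were in pseudogenes and 8 in genes annotated as protein coding, and 3 touched an annotated untranslated region. The 28 loci had a median log2 ratio of -0.32. Among all 178 members with a ratio, 12.4% were at least 2-fold lower and 15.7% at least 2-fold higher. Over all loci the shares were 2.21% and 2.06%. Of the 27 exon members above 0 in both genotypes, 6 were at least 2-fold lower and 1 was at least 2-fold higher. The 6 include the 2 pieces of Gm1966. The one that was higher, in the pseudogene Gm5913, matched G3bp1, a stress granule gene, and had 40.4 and 112 FPKM. The level within this group ran up to 5176 FPKM in miR-21+/+, for a copy of the ATP synthase subunit gene Atp5h in Gm4953, which had 4200 FPKM in miR-21-/-. Annotated pseudogenes held copies of several broadly expressed genes. The copy of Ncl, which encodes nucleolin, in Gm12020 had 539 and 343 FPKM. The copy of the ribosomal protein gene Rps2 in Gm11249 had 302 and 278 FPKM, and that of the chaperone gene Hspa8 in Gm8355 had 63.2 and 112 FPKM. The copy of Eef1d, a translation elongation factor gene, in Gm11675 had 46.9 and 31.8 FPKM.

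A further 14 exon members are given by level. Among those above 1000 FPKM in miR-21+/+ were the locus in Gm15398 and Gm5778, with 2451 and 2810 FPKM, and the Mrps21 copy in Gm6181, with 2446 and 1967 FPKM. The loci in Vamp7-ps (1554 and 1422 FPKM) and Mdm4-ps (1149 and 811 FPKM) were of the same order. Each of these 4 had a log2 ratio between -0.50 and 0.20. Lower in level, the Setd8 copy in Gm11424 had 729 and 1053 FPKM, the locus in 9930111J21Rik2 had 435 and 316 FPKM, and that in Gm5403 had 429 and 267 FPKM. The values were 167 and 162 FPKM for the Chchd2 copy in Gm13202, 155 and 105 FPKM for the locus in Gm15975, and 126 and 117 FPKM for the Zmynd8 copy in Gm9246. Of these 6, only the Setd8 copy was higher in miR-21-/-. Under 100 FPKM, the locus in Vma21-ps had 70.5 and 42.8 FPKM, and the Zfp534 match in Gm8935 had 45.1 and 36.2 FPKM. The copy of H3f3b, a histone gene, in Gm6485 had 28.5 and 35.3 FPKM. The D2hgdh match in Gm7889 had 29.9 and 12.3 FPKM and was the one locus of these 14 that was at least 2-fold apart.

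Of the 184 members, 6 were listed at 0 in one genotype and are given with no ratio. Listed at 0 in miR-21+/+ were 5 loci, with miR-21-/- values from 17.0 to 2335 FPKM. The highest was chr18:84865860-84865927, whose sequence has 6849 copies in the genome, followed by the Clpx copy described above and by a locus in an exon of Gm12666 at chr4:91857502-91857585, with 306 FPKM. Listed at 0 in miR-21-/- was chr11:56076115-56076183, a single-copy locus that matched no coding transcript and had 805 FPKM in miR-21+/+. Since the table holds no read counts, the limit that a value of 0 sets is unknown.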

How the data were processed

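Mammary gland RNA of 2 miR-21+/+ and 2 miR-21-/- mice had been sequenced. Reads were placed on mm9 by the authors using TopHat, and the FPKM values they deposited are 1 per locus and genotype from their Cufflinks run. Versions and the treatment of reads that fit several places are not given in the sources used here. The table's columns of fold change, test statistic, p and q hold the authors' own comparison and were not used. Depth is unknown and no interval could be computed. The members, lists and comparisons were chosen with earlier results of these data known, and the sequence classes after the letters had been seen.

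Log2 ratios are plain ratios of FPKM without a pseudocount, for loci above 5 FPKM in at least one genotype and above 0 in both. Table starts count from 0, since 7398 annotated gene starts matched after adding 1 and 424 as printed, and positions here count from 1. Named loci are the 12 members of highest mean FPKM, the 6 largest and 6 smallest ratios, the 3 highest at 0 in either genotype, members in exons (1 of them is not reported here) and the largest group that shares sequence; others named were chosen after their values were seen, the 10 linked loci among them. Repeat masking could not be described because the genome used was not masked. Sequences of mm9 were compared by blastn 2.17.0 (E value limit 1e-05) with the genome and the GENCODE coding transcripts. Sequences of loci matching untranslated regions and of chromosome 18 are not shown. The counting was tested on simulated data. Python 3.11.15, numpy 2.4.6, pandas 2.3.3, pysam 0.24.0 and matplotlib 3.10.9 were used. Alternatives were other FPKM minimums, pseudocounts of 1 and 0.1, 3 scalings, other length limits and subsets of members.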

Additional observations from a re-analysis of the deposited data

How the results depend on the processing

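Counts and shares were taken as unchanged within 1.5 times the reported value, and the median within 0.1 on the log2 scale. The median of -0.11 and the counts of 28 higher and 22 lower stayed so under other FPKM minimums, pseudocounts and scaling to named loci. With equal sums over all loci, 66 members were at least 2-fold lower and the median was -0.74. With a length limit of 100 bp the counts were 14 higher and 10 lower, and with 200 bp they were 43 and 43, as fewer or more loci enter. Without the 10 members of highest mean FPKM the shares of the FPKM sum were 24.0% in miR-21+/+ and 16.8% in miR-21-/-. Chosen after seeing the data, leaving out the 10 linked loci gave 18 members higher and a miR-21-/- share of 18.3%. Members found once in the genome gave 1 higher, 4 lower, a median of -0.35, and shares of 3.55% and 1.87%. No alternative turned a median to the other sign. No paired analysis was possible because each genotype has 1 combined value, and for the same reason no replicate could be left out. Depth limits every value here by an unknown amount.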
